A study of Mus musculus with 12 samples.

Results

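Kinesin motor genes were followed in the postnatal auditory nerve of the mouse. The members were all genes whose single annotated symbol is Kif followed by a number and an optional letter a, b or c, which gave 37 genes of the 18193 genes with a single symbol on the array, measured by 99 probe sets. Each gene was read from its probe set with the highest mean over the arrays. By known role, 12 of the 37 were counted as mitotic kinesins, 10 as axonal transport kinesins, 5 as kinesins for other membrane cargo, 5 as kinesins of cilia and centrioles, and 5 as kinesins of other or mixed role.

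Kinesins are motor proteins that hydrolyse ATP to move along microtubules, mostly toward their plus ends, or to take microtubule ends apart. In dividing cells, mitotic kinesins build the spindle, move chromosomes and complete the cut between daughter cells, and their transcripts are made mainly around the time of division. Neurons do not divide and send organelles, vesicles and cytoskeletal proteins down long axons on other kinesins, above all those of the KIF1, KIF3 and KIF5 families, while dynein carries cargo back toward the cell body.

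Tissue of CBA/CaJ mice of both sexes was taken at P0, P3, P7, P10, P14 and P21 (postnatal days), with 2 mice per stage and 12 arrays in all; no mouse was treated or carried a mutation. The modiolus, the central cone around which the cochlea winds and through which the auditory nerve runs, was freed of the outer bony shell, the lateral wall and most of the sensory epithelium, so the samples were enriched for nerve and not pure. Both cochleas of a mouse were pooled on 1 Affymetrix mouse 3' expression array, so the 2 arrays of a stage are separate mice. Values are log2 RMA values as deposited, and no read depth exists for arrays, where the number of arrays limits the precision. The arrays hold RNA of many cell types, and fewer cells of a type cannot be told apart from less RNA per cell.

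Markers of the labelled tissue were present: all 12 neuron markers and all 7 measured Schwann cell and myelin markers lay above the lowest 25% of probe sets on every array. Markers of other tissues were present too. The mean log2 value of 10 marrow myeloid markers ranged from 6.65 to 7.44 at P0 and P3, and from 8.83 to 11.46 at P10 to P21, with the highest value on P14 mouse 1. For 7 osteoblast markers it ranged from 7.45 to 9.14 at P0 and P3 and from 10.90 to 11.97 at P7 to P21. For 10 oligodendrocyte markers it ranged from 6.66 to 7.48 at P0 and P3 and from 9.02 to 10.36 at P7 to P21. Of these, 10 of 10 were called higher than P0 at P10 and at P14, where 11.0% and 12.6% of all genes were. The 7 Schwann cell and myelin markers had 10.32 and 10.50 at P0 and 12.49 to 12.72 at P7 to P21. The part of these cells in the changes of kinesins and adaptors was not tested. Both P21 arrays stood apart in RNA balance: the 3' probe set of Actb exceeded the 5' one by 2.32 and 2.03 on the log2 scale at P21, against 0.81 to 1.41 on the other 10 arrays. Stage P21 and this balance cannot be told apart, so changes at P10 and P14 are also given for the members called at P21.

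Over the 6 stages, 29 of the 37 kinesin genes changed (limma F-test, adjusted p under 0.05 and highest stage mean over 1.5 times the lowest), against 45.1% of all genes. Called below means an adjusted p under 0.05 by limma, with Benjamini-Hochberg adjustment over all probe sets, and a fold over 1.5. The mitotic and the axonal members followed different courses. Of the 12 mitotic members 9 changed, all 9 with their highest mean at P0, and 8 of these had their lowest mean at P21. All 10 axonal members changed, 8 with their lowest mean at P3, and 8 had their highest mean at P14 or P21. Over all 37 members, 3 (Kif14, Kif2b and Kif28) lay in the lowest 25% of probe sets on all 12 arrays, where a change could hardly be measured, and 31 never did.

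**Figure D1:**
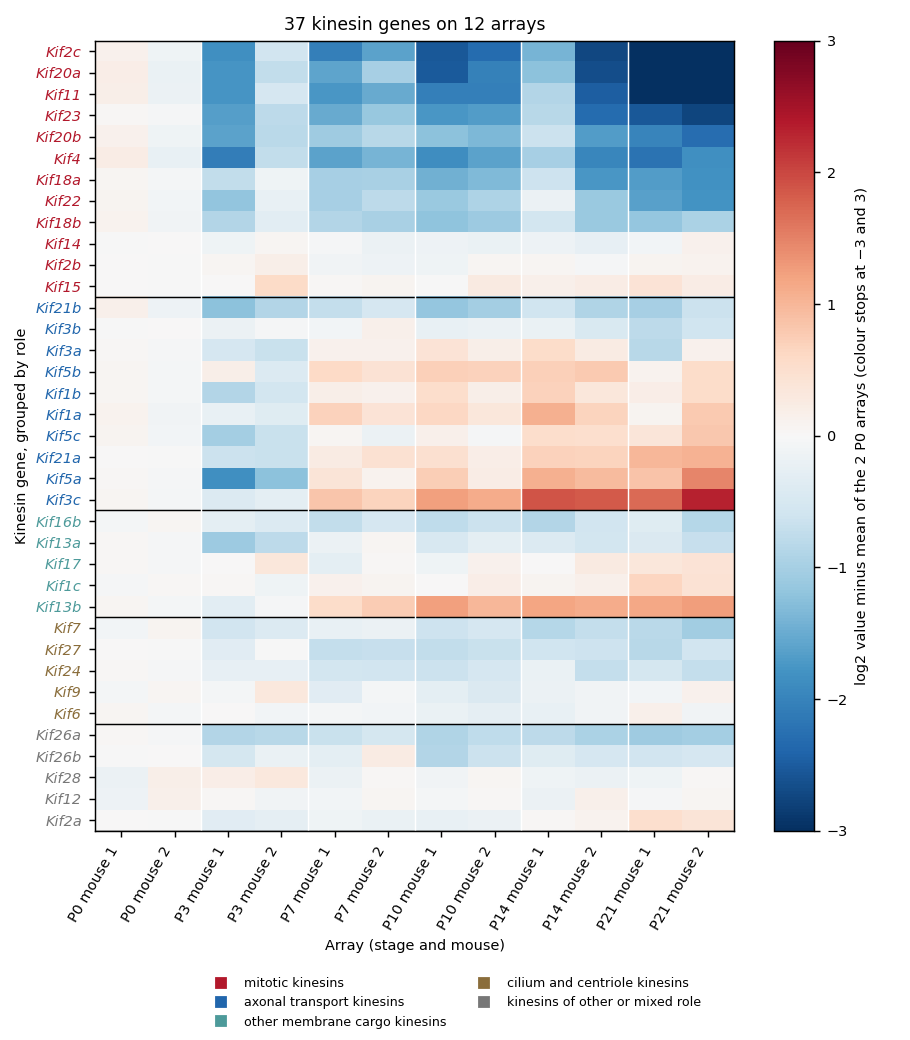
Log2 value of each of the 37 kinesin genes (rows, grouped by role) on each of the 12 arrays (columns, by stage and mouse), minus the mean of that gene's P0 arrays; blue is below P0 and red above. Of the mitotic members 9 turn blue from P3 on, and among the axonal members Kif5a is lowest at P3 and Kif3c is highest at P21.

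The mitotic members fell with age. Called lower than P0 were 0 of 12 at P3, 4 at P7, 9 at P10, 8 at P14 and 9 at P21, and none was called higher. Among all genes the share called lower than P0 was 3.78% at P3, 7.44% at P7, 13.5% at P10, 14.8% at P14 and 16.9% at P21. The median log2 change of the 12 was −0.93 at P3, −0.97 at P7, −1.34 at P10, −1.17 at P14 and −1.88 at P21, beside a median over all genes between −0.04 and 0.04. At P3 the unadjusted p was under 0.05 for 7 of the 12. Counts at P7, P10 and P14 depended on single mice: the count at P10 was 4 without P0 mouse 1 or without P10 mouse 1, that at P14 was 1 without P0 mouse 1 or P14 mouse 2 and 4 without P0 mouse 2, and that at P7 ran between 0 without P0 mouse 1 or P7 mouse 1 and 9 without either P14 mouse. The count at P21 was 9 whichever array was left out. With the Actb balance of each array as a covariate the counts were 9 at P10, 1 at P14 and 0 at P21.

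Promoter windows of 250 bases before the annotated start, from RefSeq (GRCm38.p6), were used for 31 of the 37 genes. Kinesin windows on 1 chromosome were left out, a step not applied to the windows of the whole table. They were searched because many genes of the division cycle carry a pair of short promoter elements, the cell cycle genes homology region (CHR, searched as TTTGAA) and the CCAAT box (searched as CCAAT), both on either strand. CHR letters were in the windows of 5 of 11 mitotic members and of 1 of 7 axonal members, against 16.0% of 32851 windows in the whole table. CCAAT was in 7 of 11 and 3 of 7, against 33.8%, and both were in 3 of 11 and 0 of 7, against 5.55%. Among kinesins of the other roles, Kif26b and Kif27 also held both. A gene was counted where any of its windows held the letters, while the shares are of single windows. A gene with several windows is therefore more likely to be counted, and counts and shares are not like for like. The 5 mitotic members with CHR letters were Kif11, Kif22, Kif2c, Kif14 and Kif15, and the last pair did not pass the test at any stage. Of the other called mitotic members with a window, Kif23, Kif4 and Kif18b held CCAAT alone, and Kif20b and Kif18a held neither. A match is a run of letters and not a measured binding site. The windows shown are those of the 3 called mitotic members with CHR letters, chosen for those letters, and of Kif3c. Matches are in capitals in the windows below, which read 5′ to 3′ on the gene's own strand and end at the base before the start.
Kif11, chr19:37376132-37376381, plus strand: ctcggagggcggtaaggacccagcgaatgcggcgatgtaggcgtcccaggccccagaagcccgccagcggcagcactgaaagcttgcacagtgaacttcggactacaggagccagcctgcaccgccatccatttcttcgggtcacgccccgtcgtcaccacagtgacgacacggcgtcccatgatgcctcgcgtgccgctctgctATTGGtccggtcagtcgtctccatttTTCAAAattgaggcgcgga
Kif22, chr7:127042421-127042670, minus strand: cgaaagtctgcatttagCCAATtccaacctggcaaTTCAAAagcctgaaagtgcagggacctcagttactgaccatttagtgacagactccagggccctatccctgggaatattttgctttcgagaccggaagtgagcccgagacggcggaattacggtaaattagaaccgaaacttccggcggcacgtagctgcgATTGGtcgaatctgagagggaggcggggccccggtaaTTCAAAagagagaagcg
Kif2c, chr4:117178773-117179022, minus strand: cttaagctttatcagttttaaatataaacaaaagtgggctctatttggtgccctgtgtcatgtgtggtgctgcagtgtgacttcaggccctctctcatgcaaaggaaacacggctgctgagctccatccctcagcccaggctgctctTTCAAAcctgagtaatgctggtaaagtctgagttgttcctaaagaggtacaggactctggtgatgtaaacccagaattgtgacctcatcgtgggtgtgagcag
Kif3c, chr12:3364882-3365131, plus strand: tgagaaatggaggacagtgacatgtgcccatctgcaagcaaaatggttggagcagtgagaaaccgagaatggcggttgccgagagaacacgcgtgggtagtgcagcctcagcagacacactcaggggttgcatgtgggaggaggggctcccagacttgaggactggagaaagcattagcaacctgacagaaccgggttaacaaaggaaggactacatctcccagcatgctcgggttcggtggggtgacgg
In Kif11 the reversed CCAAT lay 45 to 41 bases and the reversed CHR 19 to 14 bases before the start. Kif22 had the same order near its start, with CCAAT at 54 to 50 and CHR at 17 to 12 bases, and a second pair further out, at 233 to 229 and 215 to 210 bases. Kif2c held CHR letters alone, at 103 to 98 bases. The window of Kif3c, the axonal member with the largest rise, held neither.

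Kif2c (MCAK), which takes microtubule ends apart at centromeres, had the largest fall. Its log2 values were 9.54 and 9.28 at P0, 7.58 and 8.84 at P3, 7.36 and 7.80 at P7, 6.87 and 7.11 at P10, 8.01 and 6.67 at P14, and 5.80 and 5.76 at P21. All arrays after P0 lay below both P0 arrays, and the mice of P3 and of P14 lay more than 1.2 apart. The change was −2.42 ± 0.44 (SE) at P10 (5.35-fold, adjusted p = 0.00232) and −3.63 ± 0.44 at P21 (12.4-fold, adjusted p = 0.000123). At P14 it was −2.07 ± 0.44 (4.2-fold, adjusted p = 0.00482). The probe set read here can cross-hybridise by its design suffix, and its other probe sets did not move alike: 1 fell by 1.70 at P21 (adjusted p = 0.000107), while the others had 0.23 (adjusted p = 0.196) and 0.05 (adjusted p = 0.863) without a call. The set with 0.23 lay above the lowest 25% by its mean, and the set with 0.05 lay below it.

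Kif20a (MKLP2), which brings the chromosomal passenger complex to the central spindle, had 8.30 and 7.88 at P0, 6.33 and 7.35 at P3, 6.51 and 7.09 at P7, 5.56 and 6.06 at P10, 6.86 and 5.44 at P14, and 4.94 and 4.53 at P21. Both P21 arrays were in the lowest 25% of probe sets, so the fall to P21 is given as at least 7.62-fold (adjusted p = 0.000246); it was 4.86-fold at P10 (adjusted p = 0.00392) and 3.84-fold at P14 (adjusted p = 0.00823). Kif11 (Eg5), the motor that pushes spindle poles apart, had 9.56 and 9.21 at P0, 7.62 and 8.87 at P3, 7.63 and 7.87 at P7, 7.33 and 7.33 at P10, 8.51 and 6.91 at P14, and 5.93 and 6.30 at P21. Its levels were 4.16-fold lower at P10 (adjusted p = 0.00891) and 9.65-fold lower at P21 (adjusted p = 0.000398) than at P0. At P14 they were 3.19-fold lower (adjusted p = 0.022). Kif23 (MKLP1), the motor of centralspindlin, which organises the midzone before daughter cells part, had 8.87 and 8.81 at P0, 7.18 and 8.06 at P3, 7.33 and 7.71 at P7, 7.09 and 7.17 at P10, 8.01 and 6.54 at P14, and 6.30 and 6.08 at P21. Neither stage overlapped P0: Kif23 was lower by 1.71 ± 0.40 at P10 (adjusted p = 0.00971) and by 2.65 ± 0.40 at P21 (6.28-fold, adjusted p = 0.000517). At P14 it was 2.96-fold lower (adjusted p = 0.0136). The P10 calls of Kif11 and Kif23 were lost without P0 mouse 1 or P10 mouse 1. Their P21 calls and those of Kif2c and Kif20a held without any 1 array. The P14 calls of Kif11, Kif23 and Kif20a were lost without P0 mouse 1 or P14 mouse 2. Those of Kif11 and Kif23 were also lost without P0 mouse 2.

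The other 5 mitotic members that were called at P21 fell less. Kif20b, a motor of the late stages of cytokinesis, had 5.19 and 4.88 at P21, against 7.30 and 7.05 at P0 (4.41-fold lower, adjusted p = 0.000459); it was 2.45-fold lower at P10 and 2.23-fold lower at P14. Kif4, a chromosome-bound motor that also shapes the central spindle, had 6.07 and 6.45 at P21, against 8.51 and 8.07 at P0 (4.08-fold lower, adjusted p = 0.00272), and was 3.33-fold lower at P10 and 2.77-fold lower at P14. Kif18a, which damps the swings of chromosomes at the spindle's middle, had 5.92 and 5.77 at P21, against 7.64 and 7.53 at P0 (3.34-fold lower, adjusted p = 0.00108), and was 2.61-fold lower at P10 and 2.27-fold lower at P14. Kif22, a chromosome-arm motor, had 9.74 and 9.57 at P21, against 11.44 and 11.29 at P0 (3.27-fold lower, adjusted p = 0.00178), and its other probe sets fell by 1.94 and 2.67. The probe set read here can cross-hybridise by its design suffix. It was 2.01-fold lower at P10 (adjusted p = 0.0378), a call lost without any 1 of the P0 or P10 mice. Its change of −0.65 at P14 was not called (adjusted p = 0.162). Both other probe sets of Kif22 were called lower at P10 (−1.55 and −1.67) and at P14 (−1.25 and −1.42, adjusted p = 0.0212 and 0.049). Kif18b, which trims astral microtubules, had 6.37 and 6.57 at P21, against 7.64 and 7.42 at P0 (2.08-fold lower, adjusted p = 0.00271), and its lowest mean was at P10, where it was 2.22-fold lower, beside 1.78-fold at P14. The P10 calls of Kif20b and Kif4 were lost without P0 mouse 1 or P10 mouse 1, and for Kif20b also without P10 mouse 2, with adjusted p between 0.0543 and 0.0817. The P14 calls of Kif20b, Kif4, Kif18a and Kif18b were lost without P0 mouse 1 or P14 mouse 2, and for Kif20b and Kif18a also without P0 mouse 2, with adjusted p between 0.0501 and 0.16.

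Kif15, a spindle motor that acts beside Kif11, did not follow them: it lay between 6.25 and 6.82 on all 12 arrays and its change at P21 was 0.32 (95% interval −0.07 to 0.70, adjusted p = 0.171). Kif14, a motor of cytokinesis, and Kif2b, a spindle relative of Kif2c, lay at 3.52 to 3.91 and at 3.43 to 3.75, in the lowest 25% of probe sets on every array. Each of the 3 was read from a single probe set.

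**Figure D2:**
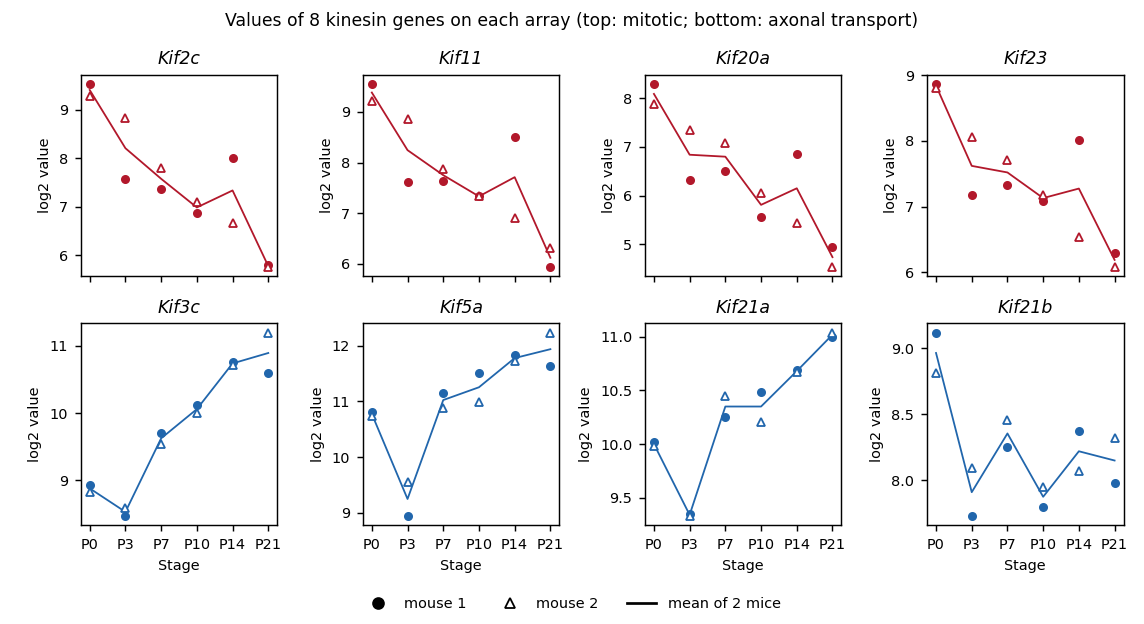
Log2 value (vertical axis, a separate scale for each gene) by stage (horizontal axis) of 4 mitotic and 4 axonal transport kinesins; filled circles are mouse 1, open triangles mouse 2, and each line passes through the stage means. P14 mouse 1 lies above P14 mouse 2 in all 4 mitotic genes, and Kif5a and Kif21a are lowest at P3.

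The 2 mice of a stage differed for mitotic members more at P3 and P14 than elsewhere. P14 mouse 1 was above P14 mouse 2 in 11 of 12 mitotic members, by a median of 0.99 on the log2 scale, and P3 mouse 2 was above P3 mouse 1 in 12 of 12, by a median of 0.84. At the other stages the median gap was between 0.10 and 0.20. Of the 14 measured partners of mitotic kinesins, genes of the spindle and of cell division, all 14 were higher in P14 mouse 1 than in P14 mouse 2 (median gap 1.45) and all 14 higher in P3 mouse 2 than in P3 mouse 1. Blood-forming marrow holds dividing cells, and in P14 mouse 1 all 10 marrow myeloid markers were higher than in P14 mouse 2 (median gap 2.66), as were all 8 erythroid markers (1.75) and 8 of 9 B cell markers. At P3, 7 of 8 erythroid markers were higher in mouse 2, by a median of 0.50, but 7 of 10 marrow myeloid markers were higher in mouse 1. The part of these cells in the mitotic values was not tested.

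**Figure D3:**
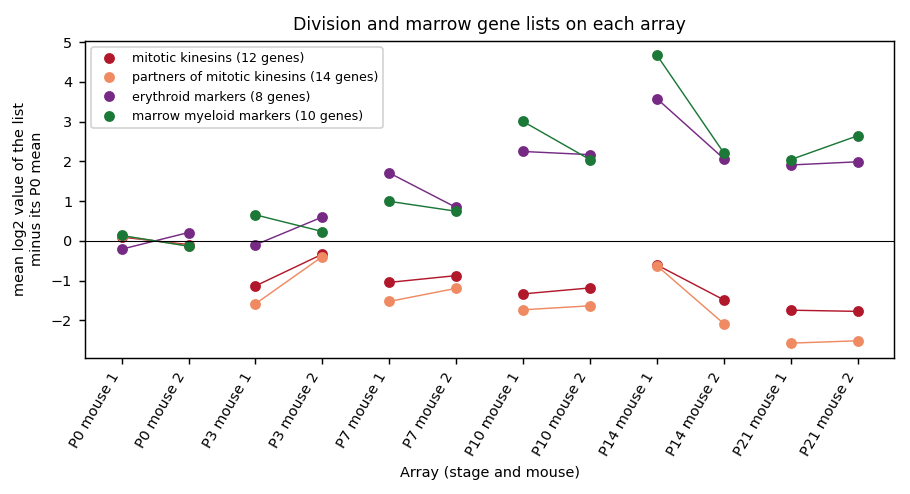
Mean log2 value of 4 gene lists on each array, minus the mean of the list's P0 arrays (vertical axis), by stage and mouse (horizontal axis); thin lines join the 2 mice of a stage. Mitotic kinesins and their partners lie below 0 at every stage after P0, while marrow myeloid and erythroid markers lie highest on P14 mouse 1.

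Of the 14 measured genes that work with the mitotic kinesins, 11 were called lower at P10, 9 at P14 and 14 at P21, and none higher, where 13.5%, 14.8% and 16.9% of all genes were called lower. Bub1, a spindle checkpoint kinase, had 5.68 and 5.66 at P21, against 9.49 and 9.04 at P0, and was 12.1-fold lower (adjusted p = 0.000397), beside 4.44-fold at P10 and 3.45-fold at P14. Top2a, which untangles DNA before chromosomes part, was 10.5-fold lower at P21, Cdk1, the kinase that starts mitosis, 9.19-fold lower, and Racgap1, the partner of Kif23 in centralspindlin, 8.22-fold lower. At P10 these 3 were 4.27-fold, 2.92-fold and 4.98-fold lower, and at P14 3.12-fold, 3.07-fold and 4.18-fold lower. Cdk1 had 6.58 and 6.36 at P21, against 9.82 and 9.52 at P0. Kinesins whose names fall outside the Kif number rule included further mitotic motors: Cenpe, the kinetochore motor, had 6.19 and 5.92 at P21, against 8.65 and 8.47 at P0 (5.68-fold lower, adjusted p = 0.00303), and Kifc1, a minus-end-directed spindle motor, was 2.67-fold lower. At P10 they were 3.20-fold and 2.35-fold lower, and at P14 neither was called (adjusted p = 0.0801 and 0.0597).

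Axonal transport kinesins took another course, with a dip at P3, a return by P7 and, in some members, a rise past P0 later. Called lower than P0 at P3 were 5 of 10, where 3.78% of all genes were. The median log2 change was −0.62, and all 10 had changes below 0. Called higher at P7 than at P3 were 6 of 10, with a median of 0.82, where 7.81% of all genes were called higher. Calls of this kind were not confined to kinesins. Of 18 genes for dynein and dynactin, 3 were called lower and 1 higher at P3 (median change 0.01), and 5 higher at P7 than at P3. Against P0, 1 of the 10 axonal members was called higher at P7, 2 at P10, 5 at P14 and 4 at P21, where the shares of all genes were 7.54%, 11.0%, 12.6% and 15.3%. Called lower than P0 was 1 of 10 at P7, P10 and P14 and 2 at P21. The shares of all genes called lower were 7.44%, 13.5%, 14.8% and 16.9% at these stages. The median change was 0.20 at P7, 0.35 at P10, 0.59 at P14 and 0.41 at P21. The dip rested on few mice: without P0 mouse 1 or without P3 mouse 1 none of the 10 was called lower at P3, and without P0 mouse 2 it was 1. The count for P7 against P3 was 3 without P7 mouse 1, the count for P14 was 2 without P0 mouse 2 and 3 without P14 mouse 1, and the count for P10 was 1 without any 1 of the P0 or P10 mice. The 1 rise at P7 was not called without either P0 mouse or without P7 mouse 1.

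The KIF5 genes encode the heavy chains of conventional kinesin. Kif5a, the neuronal form, had 10.81 and 10.74 at P0, 8.94 and 9.55 at P3, 11.16 and 10.89 at P7, 11.52 and 10.99 at P10, 11.83 and 11.73 at P14, and 11.64 and 12.24 at P21. Both P3 arrays were below all others and both P21 arrays were above both P0 arrays. Kif5a was 2.89-fold lower at P3 than at P0 (adjusted p = 0.00872), 3.43-fold higher at P7 than at P3 (adjusted p = 0.00148) and 2.24-fold higher at P21 than at P0 (change 1.17 ± 0.25, adjusted p = 0.00386). Its change of 0.48 at P10 was not called (adjusted p = 0.19). At P14 it was 2.01-fold higher than at P0 (adjusted p = 0.0111), a call lost without P0 mouse 2 or P14 mouse 1. Kif5c, also enriched in neurons, had 11.80 and 11.65 at P0, 10.70 and 11.06 at P3, 11.78 and 11.55 at P7, 11.88 and 11.70 at P10, 12.25 and 12.22 at P14, and 12.09 and 12.53 at P21. It was 1.80-fold lower at P3 than at P0 (adjusted p = 0.0206). Its changes of 0.06 at P10 and 0.51 at P14 were under the fold limit. Its rise at P21 lay at the fold limit itself (adjusted p = 0.0188). That rise was lost without P0 mouse 2 or P21 mouse 2 (adjusted p = 0.103 and 0.139), and the falls of Kif5a and Kif5c at P3 were lost without either P0 mouse or P3 mouse 1, with adjusted p between 0.057 and 0.156. Kif5b, the form used by most cell types, had 11.25 and 11.12 at P0, 11.37 and 10.77 at P3, 11.79 and 11.63 at P7, 11.91 and 11.87 at P10, 11.90 and 11.97 at P14, and 11.28 and 11.74 at P21. Kif5b had no call at P3 (change −0.12, 95% interval −0.55 to 0.32) and was 1.63-fold higher at P10 (adjusted p = 0.0209) and 1.68-fold higher at P14 (adjusted p = 0.0141) than at P0. Its P10 call was lost without any 1 of the P0 or P10 mice (adjusted p between 0.0635 and 0.112) and its P14 call without P0 mouse 2 or P14 mouse 2 (adjusted p = 0.0845 and 0.0742).

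The KIF3 genes encode the subunits of heterotrimeric kinesin, in which Kif3a pairs with either Kif3b or Kif3c. Kif3c, the form enriched in nervous tissue, had the largest rise of all 37 members. Its values were 8.93 and 8.83 at P0, 8.47 and 8.59 at P3, 9.71 and 9.54 at P7, 10.12 and 10.00 at P10, 10.76 and 10.72 at P14, and 10.59 and 11.20 at P21. From P7 on every array lay above both P0 arrays, and the change was 1.18 ± 0.17 at P10 (2.27-fold, adjusted p = 0.000639), 1.86 ± 0.17 at P14 (3.63-fold, adjusted p = 3.62e-05) and 2.02 ± 0.17 at P21 (4.04-fold, adjusted p = 1.48e-05). Its second probe set rose by 0.93 at P21 (adjusted p = 0.00043). Kif3b, the form also used for building cilia, had 6.90 and 7.08 at P21, against 7.67 and 7.69 at P0, and was 1.61-fold lower (adjusted p = 0.00166), while its changes of −0.20 at P10 and −0.32 at P14 were not called. Kif3a had 9.09 and 10.06 at P21, against 9.96 and 9.88 at P0, and its change of −0.35 ± 0.25 was not called (adjusted p = 0.307), nor were those of 0.30 at P10 and 0.40 at P14; at P21 it was 0.14 without P21 mouse 1, and −0.83 and called without P21 mouse 2.

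Of the KIF1 and KIF21 genes, Kif1a, which carries precursors of synaptic vesicles, was 1.80-fold higher at P7 than at P3 (adjusted p = 0.03) and had 7.94 and 7.56 at P14, against 6.99 and 6.78 at P0 (1.82-fold higher, adjusted p = 0.0139). At P21 its other probe set was called higher, by 0.72 (adjusted p = 0.0203). Its brightest had 6.96 and 7.67 there and was not called (adjusted p = 0.156). Its P14 call was lost without P0 mouse 2 or P14 mouse 1 (adjusted p = 0.0911 and 0.103), and the call for P7 against P3 without any 1 of those stages' mice (adjusted p between 0.0537 and 0.192), while at P21 it was called without P21 mouse 1. Kif1b, which carries mitochondria and vesicle precursors, had 10.91 and 11.23 at P3, against 11.86 and 11.72 at P0 (1.65-fold lower, adjusted p = 0.0469), and that call was lost without any 1 of the mice of P0, P3, P7 or P10 (adjusted p between 0.0535 and 0.263). Kif21a, a motor that also restrains microtubule growth, had 10.02 and 9.98 at P0, 9.35 and 9.33 at P3, 10.25 and 10.45 at P7, 10.49 and 10.21 at P10, 10.69 and 10.67 at P14, and 11.00 and 11.04 at P21. Its change of 0.35 at P10 was under the fold limit, and at P14 it was 1.6-fold higher than at P0 (adjusted p = 0.00136). Its 2 mice were close at P0, P3, P14 and P21, and it was 1.58-fold lower at P3 (adjusted p = 0.0115) and 2.03-fold higher at P21 (adjusted p = 8.23e-05) than at P0; the fall at P3 was lost without either P0 mouse or P3 mouse 1 (adjusted p between 0.0578 and 0.0982). Kif21b, its relative, went the other way: it had 9.12 and 8.81 at P0, 7.73 and 8.09 at P3, 8.25 and 8.46 at P7, 7.80 and 7.95 at P10, 8.37 and 8.07 at P14, and 7.98 and 8.32 at P21. Every later array was below both P0 arrays, and Kif21b was 2.13-fold lower at P10 (adjusted p = 0.00132) and 1.76-fold lower at P21 (adjusted p = 0.00447). At P14 it was 1.68-fold lower (adjusted p = 0.00942), a call lost without P0 mouse 1 or P14 mouse 2.

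The 2 mice of P21 differed in the axonal members: P21 mouse 2 was above P21 mouse 1 in 10 of 10, by a median of 0.45, and in 12 of 12 neuron markers, by a median of 0.53. P21 mouse 1 was also the array with the higher Actb balance. Without P21 mouse 1 the median axonal change at P21 was 0.67 and without P21 mouse 2 it was 0.15. The neuron markers themselves had a median change of −0.40 at P3, with 1 of 12 called higher and 2 lower, and of 0.77 at P21, with 6 higher and 5 lower. Of all genes, 1.61% were called higher and 3.78% lower at P3, and 15.3% and 16.9% at P21. The part of neuron content and of RNA balance in the axonal values was not tested. With the balance as a covariate, 3 axonal members were called lower at P3, 6 higher at P14 and 1 higher at P21.

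Several axonal genes had probe sets that disagreed at P21. For Kif5b, whose brightest probe set changed by 0.32 without a call, another was called higher, by 0.85 (adjusted p = 0.000371), and a further one had −0.49 without a call. For Kif1a, whose brightest probe set changed by 0.43 without a call, the other was called higher, by 0.72 (adjusted p = 0.0203). For Kif3a another probe set was called higher, by 0.60 (adjusted p = 0.0257), and for Kif1b one was called lower, by 0.87 (adjusted p = 0.00802). Kif5a and Kif21a each had other probe sets with changes between 0.07 and 0.23, none called, beside their brightest with 1.17 and 1.02. For Kif3b, whose brightest probe set was called lower, another was too, by 0.60 (adjusted p = 0.0303). Its remaining probe sets had −0.02 and −0.18 without a call. For Kif5c, other probe sets above the dim limit had 0.47 and −0.19 without a call. When a gene's probe sets were averaged, 1 axonal member was called higher at P21 and 3 at P14, and 1 lower at P3. Among called members with other probe sets above the dim limit, the sign was the same in 16 of 16 such probe sets at P10, 18 of 18 at P14 and 17 of 19 at P21.

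**Figure D4:**
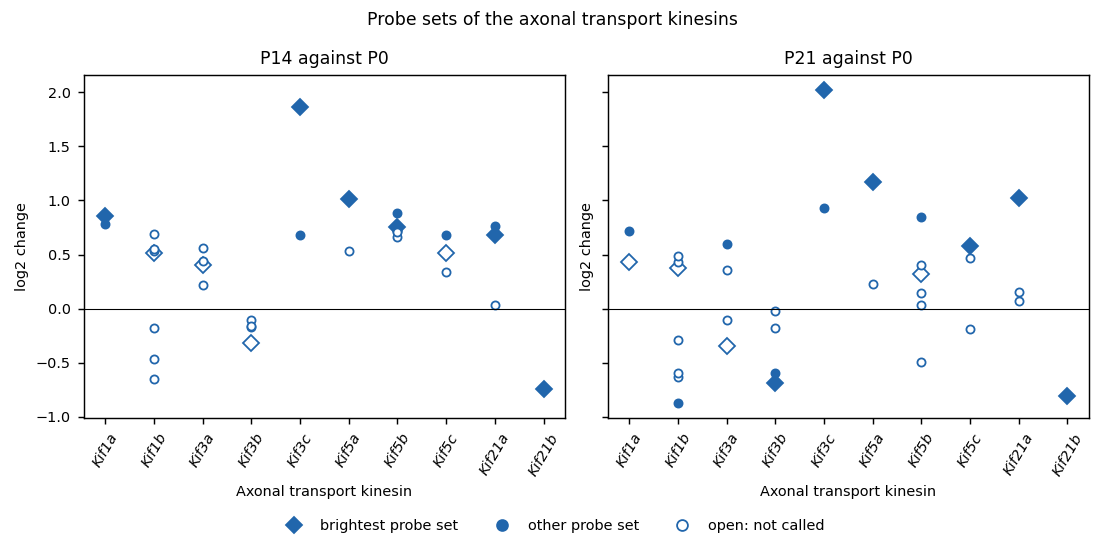
Log2 change (vertical axis) of the probe sets of the 10 axonal transport kinesins whose mean lies above the lowest 25%, for P14 against P0 and P21 against P0; diamonds are the brightest probe set of a gene, circles the others, and filled symbols were called. The probe sets of Kif1b and Kif5b spread over both sides of 0 at P21, while both probe sets of Kif3c lie above 0 at both stages.

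Over the 6 stages, 4 of the 5 kinesins for other membrane cargo changed, against 45.1% of all genes. So did 3 of the 5 of cilia and centrioles and 3 of the 5 of other or mixed role. Among the 5 for other membrane cargo, Kif13b, a carrier of membrane scaffold proteins, had 8.06 and 7.95 at P0, 7.69 and 7.97 at P3, 8.55 and 8.77 at P7, 9.24 and 8.99 at P10, 9.18 and 9.11 at P14, and 9.17 and 9.26 at P21. All arrays from P7 on were above both P0 arrays. It was 2.16-fold higher at P10 (adjusted p = 0.000223), 2.20-fold higher at P14 (adjusted p = 0.000154) and 2.31-fold higher at P21 (adjusted p = 7.19e-05). Its other probe sets above the dim limit were called higher at P10 (0.74 and 1.09) and at P14 (0.75 and 1.23). At P21 they had 0.57 and 0.50 and were not called (adjusted p = 0.019 and 0.238). A dim one had 0.03 at P21. Kif13a, a carrier of endosomes, shared the dip of the axonal members, with 9.16 and 9.46 at P3, against 10.29 and 10.21 at P0 (1.92-fold lower, adjusted p = 0.00736), a call lost without P0 mouse 1 or P3 mouse 1 (adjusted p = 0.0726 and 0.0508). Kif16b, which moves early endosomes, had 10.58 and 10.09 at P21, against 10.89 and 11.02 at P0 (1.54-fold lower, adjusted p = 0.0134), a call lost without P0 mouse 2 or P21 mouse 2 (adjusted p = 0.0787 and 0.101). It was 1.63-fold lower at P10 and 1.65-fold lower at P14, calls lost without P0 mouse 2 and without P10 mouse 1 or P14 mouse 1, with adjusted p between 0.0566 and 0.0704. Both other probe sets of Kif16b were called lower at P10, P14 and P21, by 0.63 to 0.94. At P21 the brightest probe set of Kif13a had −0.56, under the fold limit (adjusted p = 0.0108). Its other probe sets had −1.02, −1.70 and −0.90, all called, and 0.01, not called. Kif1c and Kif17 were not called at P21.

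Of the 5 kinesins of cilia and centrioles, 3 were called lower at P21 and none higher, where 16.9% of all genes were called lower. Kif7, which governs Hedgehog signalling at the tip of the cilium, had 8.56 and 8.33 at P21, against 9.29 and 9.46 at P0 (1.91-fold lower, adjusted p = 0.000186); its change of −0.57 at P10 was under the fold limit, and at P14 it was 1.73-fold lower. Kif27, its close relative, had 5.41 and 5.67 at P21, against 6.24 and 6.23 at P0 (1.62-fold lower), and Kif24, which acts at centrioles, had 6.76 and 6.57, against 7.33 and 7.24 (1.54-fold lower). The Kif27 call was lost without P21 mouse 1, where its change of −0.56 was under the fold limit, and that of Kif24 without P0 mouse 1 or P21 mouse 2 (adjusted p = 0.0623 and 0.0622). Kif27 was 1.63-fold lower at P10 and 1.53-fold lower at P14, and Kif24, with −0.57 and −0.46, was under the fold limit at both stages. Among the rest, Kif26a, an atypical kinesin that restrains Ret signalling in enteric neurons, was called lower at every stage after P0: it had 8.41 and 8.47 at P21, against 9.52 and 9.45 at P0 (2.06-fold lower, adjusted p = 4.03e-05), and was 1.78-fold lower at P10 and 1.82-fold lower at P14. Kif26b was called at P10 alone, with 7.64 and 7.87 at P10, against 8.51 and 8.54 at P0 (1.71-fold lower, adjusted p = 0.00788), and that call was lost without P10 mouse 1 (adjusted p = 0.072). Kif2a, an end-depolymerising motor active in neurons and in spindles, had 11.45 and 11.33 at P21, against 10.96 and 10.95 at P0, a change of 0.43 under the fold limit (adjusted p = 0.00389). Kif6, Kif9, Kif12 and Kif28 were called in no comparison.

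**Figure D5:**
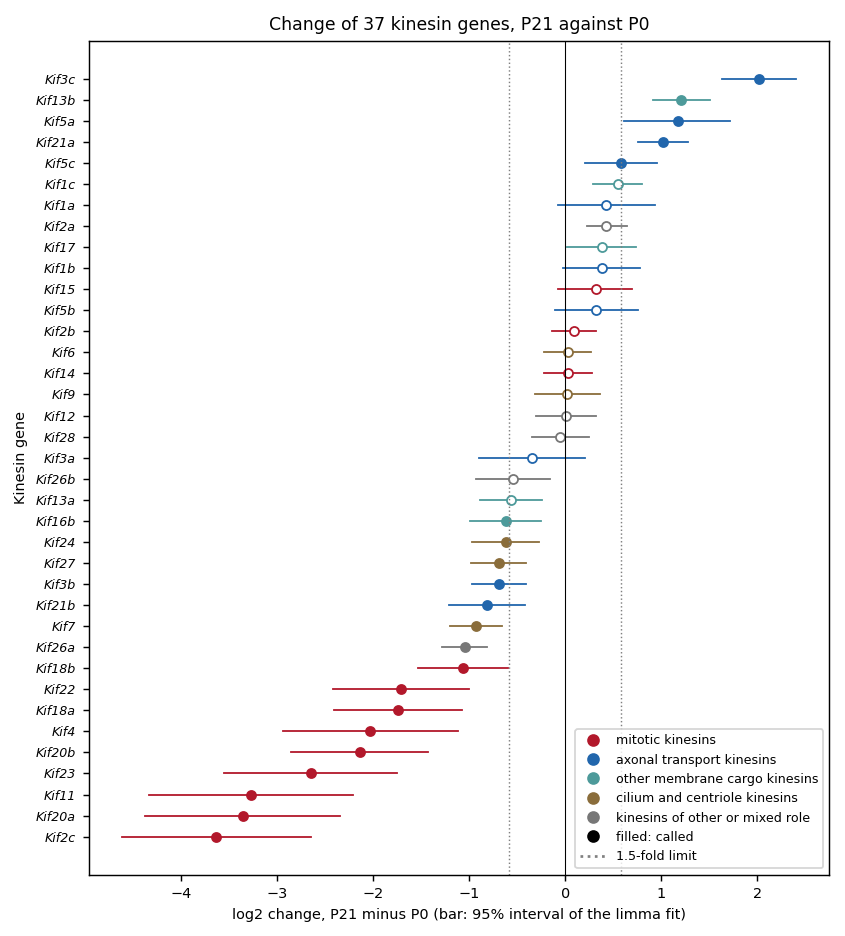
Log2 change at P21 against P0 (horizontal axis) of the 37 kinesin genes (vertical axis, ordered by change), coloured by role; bars are 95% intervals of the limma fit, dotted lines mark a 1.5-fold change, and filled points were called. The 9 lowest points are mitotic members, from −1.06 for Kif18b to −3.63 for Kif2c, and 4 of the 5 called rises are axonal members.

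Over all 37 members, called higher and lower against P0 were 0 and 7 at P3, 2 and 8 at P7, 3 and 14 at P10, 6 and 13 at P14, and 5 and 16 at P21. Of all genes, 1.61% were called higher at P3, 7.54% at P7, 11.0% at P10, 12.6% at P14 and 15.3% at P21. Called lower were 3.78%, 7.44%, 13.5%, 14.8% and 16.9% of all genes at these stages. Between successive stages, calls lay on the first steps. At P3, 7 members were lower than at P0. At P7, 8 members were higher than at P3, where 7.81% of all genes were, and 0 were lower, where 5.36% were. Without P7 mouse 1 the axonal part of the count at P7 was 3 in place of 6. On later steps none was called: 0 at P10 against P7, where 0.385% of all genes were called, 0 at P14 against P10, where 0.00% were, and 0 at P21 against P14, where 2.08% were. The unadjusted p was under 0.05 for 7, 4 and 11 members on these steps, and the methods' t-test gave 1 member for P14 against P10 at unadjusted p. Without P14 mouse 2 the count for P21 against P14 was 7, without P3 mouse 1 or P3 mouse 2 it was 2, and without P21 mouse 2 it was 1; without P7 mouse 1 the count for P10 against P7 was 1.

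Of 14 measured light chains and adaptors, which tie kinesins to cargo, 5 were called higher at P10, 7 at P14 and 10 at P21, and none lower, where 11.0%, 12.6% and 15.3% of all genes were called higher. Mapk8ip2 and Mapk8ip3, scaffold proteins that link kinesin light chains to cargo, were 4.98-fold and 4.14-fold higher at P21 than at P0. At P10 Mapk8ip2 was 2.51-fold higher, and the change of 0.63 in Mapk8ip3 was not called. At P14 they were 4.08-fold and 2.65-fold higher. Mapk8ip3 had 9.57 and 10.30 at P21, against 7.91 and 7.86 at P0, and like Kif5a was lowest at P3, with 6.68 and 6.84. Klc1, a light chain of conventional kinesin, was 2.63-fold higher at P21 (adjusted p = 0.000345), and Sybu (syntabulin), an adaptor of Kif5 for synaptic cargo and mitochondria, 2.27-fold higher (adjusted p = 7.34e-05); at P10 they were 1.57-fold and 2.19-fold higher and at P14 2.27-fold and 2.49-fold higher. Of 18 genes for dynein and dynactin, 3 were called higher at P21 and 1 lower, shares of 18 that lie near the 15.3% and below the 16.9% of all genes. Dync1i1, the neuronal dynein intermediate chain, had 11.77 and 12.22 at P21, against 9.91 and 9.68 at P0 (4.59-fold higher, adjusted p = 5.55e-06), Dynlt3, a dynein light chain, was 2.47-fold higher, and Ndel1, a regulator of dynein, 1.91-fold higher. The same 3 were called higher at P10 (4.30-fold, 2.17-fold and 1.62-fold) and at P14 (4.55-fold, 2.30-fold and 1.78-fold). Dctn5, a dynactin subunit, was 1.52-fold lower at P21 and was called at neither P10 nor P14. Outside the Kif number rule, the minus-end-directed motors Kifc3 and Kifc2 were 2.35-fold and 2.04-fold higher at P21 than at P0; they were 2.32-fold and 1.68-fold higher at P10, and 2.08-fold and 2.10-fold higher at P14.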

How the data were processed

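Auditory nerve tissue of 12 CBA/CaJ mice, 2 at each of 6 stages, was measured on Affymetrix mouse arrays. Per the labels and the paper, the authors processed the scans in Expression Console by RMA and MAS5 (version not given in the sources used here). What was deposited is on the log2 scale and is the RMA output, in which background is removed, arrays are quantile normalized and probes are combined into 1 value for each probe set. These values were used unaltered, so a change relative to the whole array is measured. Array medians were 6.70 to 6.79, the table held 0 columns of other samples, and 64 control probe sets were left out of 45101. The kit for RNA differs between the labels and the paper.

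limma 3.58.1 in R 4.3.3 (lmFit, eBayes) was fitted to 45037 probe sets with 1 mean per stage, giving 6 residual and 4.03 prior degrees of freedom, and tables and figures were made with Python 3.11.15. Of the probe sets 34945 had 1 gene symbol. Members called at P21 or P10 against P0 are given with values, others by range, and up to 4 called genes of each companion list by fold. The members, lists and tests were chosen with earlier results of these data known. An "at least" fold sets both arrays of a dim stage at the 25th percentile of that array. Before use, the fitting step was tested on simulated data. Alternatives were the replicate block, an intensity trend, dim probe sets left out, the mean of a gene's probe sets, arrays shifted to one median, the 4 arrays of a contrast alone, the methods' t-test, a wider axonal list and each array left out. The Actb balance as a covariate, and both P21 arrays left out, were added after seeing the data.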

Additional observations from a re-analysis of the deposited data

How the results depend on the processing

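Under the methods' t-test with Benjamini-Hochberg adjustment, the counts of mitotic members called lower at P7, P10, P14 and P21 and of axonal members called higher at P7, P10, P14, P21 and P7 against P3, and lower at P3, were 0. At unadjusted p that test gave 8 mitotic members at P7, 0 at P14, 2 axonal members at P21 and 1 kinesin gene for P14 against P10. With the 4 arrays of a contrast alone, 9 mitotic members were called at P7 and 0 axonal members at P3. An intensity trend called 1 mitotic member at P3. With the mean of all probe sets, axonal calls were 0 at P7, 3 at P14 and 1 at P21, 1 lower at P3, and the medians were −1.16 for mitotic members at P21 and 0.64 and 0.24 for axonal members at P7 against P3 and at P21. With the Actb balance as a covariate, added after seeing the data, mitotic calls were 1 at P14 and 0 at P21, and axonal calls 1 at P21, 3 at P3 and 3 for P7 against P3; this covariate nearly coincides with P21, and most called changes at P21 lost their call. The sign of the P21 change reversed for Kif24 (0.01), Kif15 (−0.72) and Kif3a (1.63) with the covariate, for Kif3a (0.13) and Kif1b (−0.16) with the mean of all probe sets, and for Kif3a (0.14) without P21 mouse 1, which was −0.83 and called without P21 mouse 2. The cause was not tested.

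Leaving out each array in turn gave 0 to 2 mitotic members at P3, 0 to 9 at P7, 4 to 9 at P10, 1 to 9 at P14 and 9 to 9 at P21. Axonal calls were 0 to 1 at P7, 1 to 2 at P10, 2 to 5 at P14, 3 to 5 at P21, 0 to 6 lower at P3 and 3 to 8 for P7 against P3. Kinesin genes called were 0 to 1 for P10 against P7, 0 to 0 for P14 against P10, 0 to 7 for P21 against P14 and 22 to 28 over the 6 stages, and the median axonal change at P21 was 0.15 to 0.67. A lone array was assumed to vary like the other stages. The shared replicate numbers were not taken to pair the samples, as the labels name no shared litter or day. Correlations of the mice's differences between stages ran from −0.12 to 0.32 over 15 pairs of stages, 6 of them over 0.1. These values do not settle whether mice of the same number shared a condition. With the replicate block, 28 kinesin genes were called over the 6 stages, 75 of 77 single-gene results kept their direction and side of the threshold, and Kif1b at P3 and Kif22 at P10 lost their call. Without both P21 arrays all 51 single-gene results that could be computed kept theirs, with 9 mitotic members at P10 and 8 at P14. With 2 mice per stage, absent calls do not show that a gene was unchanged.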
